A study of Mus musculus with 2 samples.

Results

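The 10 genes Dlx1, Dlx2, Dlx5, Dlx6, Lhx6, Nkx2-1, Sp8, Sp9, Maf and Satb1 encode transcription factors of the interneuron lineage. They were taken by name, with earlier results of these data known, from 21884 protein-coding genes with a unique symbol. Open chromatin, where the nuclease DNase I can reach and cut the DNA, was described at each gene and 50 kb either side of it. DNase-seq was done on 2 libraries whose tissue type is labelled "layer of hippocampus". They are labelled biological replicates 1 and 2 of a single group. The mice were B6CASTF1/J females, hybrids of C57BL/6J and CAST/EiJ, aged 14 days, with 3 females named per label. Biosample identifiers differ between the libraries and the donor identifier is shared. No label says that the animals were separate, and the spread between the libraries may be technical. No group differed in genotype, treatment or age, so there was no comparison between conditions and no test.

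Inhibitory interneurons of the hippocampus are born in the ganglionic eminences of the embryonic forebrain and migrate into the hippocampus. Dlx homeodomain factors act throughout that lineage. Nkx2-1 and then Lhx6 specify the cells of the medial eminence, and Maf and Satb1 act as those cells mature. The zinc-finger factors Sp8 and Sp9 act in the lateral and caudal eminences, and Sp9 also in the medial one. Interneurons are a minority of hippocampal cells. In bulk tissue, fewer cells with an open site and a less open site in each cell cannot be told apart.

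A promoter peak was a deposited peak within 500 bp of any annotated transcript start of the gene, and a distal peak lay over 1 kb from every annotated start of any gene. Peak signal was the authors' own value, on a scale that is not stated and that differed between the libraries. Signals are therefore given side by side, and each is ranked only within its own library. The replicates held 115699 and 167829 peaks, and the depth in reads is unknown. Peaks in the windows of the 10 genes numbered 84 in replicate 1 and 53 in replicate 2. Of these, 27 and 11 were promoter peaks of the genes, 42 and 33 were distal, 6 and 5 lay at starts of other genes, and 9 and 4 lay 500 to 1000 bp from a start.

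The promoters of 8 of the 10 genes were open in both libraries, at low signal, and those of Lhx6 and Nkx2-1 had no peak in either. The strongest distal peak in the windows of the 4 Dlx genes, Sp8 and Sp9 had a higher signal than the gene's own promoter in replicate 1. The count of 8 was the same in each library and in both, where 67.2% of all genes had a promoter peak in replicate 1, 64.9% in replicate 2 and 63.2% in both. No member had one in a single library, against 3.93% of genes in replicate 1 alone and 1.68% in replicate 2 alone. The 2 members without one stand beside 31.2% of all genes. With the stricter of the authors' peak lists only 3 members had a promoter peak in both libraries, Dlx1, Maf and Satb1. Dlx2, Dlx5, Dlx6 and Sp9 then had one in replicate 1 alone, and Sp8 had none.

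The distal sites found in both libraries are shown first, since the sections on each gene turn on them. For each locus, with Dlx1 and Dlx2 joined and Dlx5 and Dlx6 joined, the site is the distal peak of both libraries with the highest smaller percentile of signal. Letters are the plus strand of GRCm38.p6 (mm10), the C57BL/6J reference, 5′ to 3′ over the replicate 1 peak. CAST/EiJ alleles of the hybrids may differ from it. Capitals mark bases that lay in a footprint of both libraries, a footprint being a short stretch that the authors called as protected from cutting.
Dlx1 and Dlx2, chr2:71547941-71548120: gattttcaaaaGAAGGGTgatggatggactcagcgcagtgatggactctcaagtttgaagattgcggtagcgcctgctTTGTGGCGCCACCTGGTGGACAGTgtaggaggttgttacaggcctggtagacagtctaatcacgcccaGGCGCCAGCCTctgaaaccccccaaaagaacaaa
Dlx5 and Dlx6, chr6:6885041-6885200: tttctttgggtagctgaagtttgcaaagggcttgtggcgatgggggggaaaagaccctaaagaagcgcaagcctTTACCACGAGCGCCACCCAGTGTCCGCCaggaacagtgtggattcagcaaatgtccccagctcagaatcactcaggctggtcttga
Nkx2-1, chr12:56541161-56541340: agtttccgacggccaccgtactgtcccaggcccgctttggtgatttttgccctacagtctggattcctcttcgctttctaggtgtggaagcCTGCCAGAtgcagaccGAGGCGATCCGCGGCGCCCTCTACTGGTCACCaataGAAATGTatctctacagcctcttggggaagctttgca
Lhx6, chr2:36091501-36091600: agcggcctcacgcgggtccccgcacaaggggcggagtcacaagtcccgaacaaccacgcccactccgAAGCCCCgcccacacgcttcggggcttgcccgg
Maf, chr8:115709541-115709720: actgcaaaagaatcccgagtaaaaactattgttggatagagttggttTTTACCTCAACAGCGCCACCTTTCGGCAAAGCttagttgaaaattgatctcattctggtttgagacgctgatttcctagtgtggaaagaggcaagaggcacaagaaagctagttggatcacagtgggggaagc
Satb1, chr17:51790737-51790898: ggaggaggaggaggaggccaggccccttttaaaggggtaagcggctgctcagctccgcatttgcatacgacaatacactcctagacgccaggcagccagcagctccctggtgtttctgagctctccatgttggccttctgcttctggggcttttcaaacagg
Sp8, chr12:118855181-118855380: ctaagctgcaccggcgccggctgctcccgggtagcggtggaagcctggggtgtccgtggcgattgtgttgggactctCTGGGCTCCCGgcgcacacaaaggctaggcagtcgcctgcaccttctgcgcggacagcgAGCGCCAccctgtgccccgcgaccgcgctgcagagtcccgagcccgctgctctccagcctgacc
Sp9, chr2:73278581-73278740: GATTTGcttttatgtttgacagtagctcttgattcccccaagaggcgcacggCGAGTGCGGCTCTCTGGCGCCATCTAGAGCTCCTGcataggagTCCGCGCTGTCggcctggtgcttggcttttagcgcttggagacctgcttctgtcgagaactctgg

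Most of the 8 sites held a common run of letters at a footprint. The letters GCGCCNNC, part of the textbook binding sequence of the insulator protein CTCF read on one strand, were chosen after these sequences were seen, so their count is a description. They overlapped a footprint stretch of both libraries by at least 1 base at 6 of the 8 sites, all but those of Lhx6 and Satb1, and at all 6 they were read on the plus strand. The copies there were GCGCCACC at the Dlx5, Maf and Sp8 sites, GCGCCATC at the Sp9 site and GCGCCCTC at the Nkx2-1 site. The Dlx2 site held both GCGCCACC and GCGCCAGC. Of all 54709 distal peaks of replicate 1 found in both libraries, 12.2% held the letters and 7.48% held them at such a stretch. Among the 11994 such peaks at or above the 73.1 percentile in both libraries, that of the weakest of the 6 sites, 21% did. The members' distal peaks also held more CpG, with a median observed over expected of 0.58 in replicate 1 and 0.41 in replicate 2, beside 0.26 and 0.21 over all distal peaks. The part of base composition in the shares of letters was not tested. No factor was measured here, and a match is not a binding site. In the Nkx2-1 site the E-box CAGATG, a sequence read by NeuroD-type factors, also overlapped a footprint in both libraries, and in the Lhx6 site the Sp and KLF letters GGGCGG did so, read on the minus strand as CCGCCC.

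Dlx1 and Dlx2 are neighbours on chromosome 2 that are transcribed towards each other, Dlx1 at 71528113 to 71533981 on the plus strand and Dlx2 at 71543408 to 71546754 on the minus strand. Both encode homeodomain activators that switch on genes of the inhibitory transmitter GABA in progenitors. The strongest Dlx1 promoter peak reached 1.41 in replicate 1 and 1.04 in replicate 2, at the 15.3 and 23.5 percentiles among genes with a promoter peak. The replicate 2 peak, at 71529621 to 71529840, lay 13 bp from the start of an internal transcript. With starts of protein-coding transcripts only, or with the gene's 5′ end only, Dlx1 had a promoter peak in replicate 1 alone. The strongest Dlx2 promoter peak had 1.38 and 0.623, at the 15.1 and 13.5 percentiles, and covered the annotated start in both libraries.

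At Dlx1 and Dlx2, with all annotated starts counted, both libraries had a promoter peak, and replicate 1 had more of them. Replicate 1 had 7 promoter peaks at Dlx1 and 3 at Dlx2, and replicate 2 had 1 at each. The deposited files of false discovery rate (FDR) list the bases whose cut rate passed an FDR under 0.05. Within 500 bp of the Dlx1 starts 49.7% of bases passed in replicate 1 and 7.93% in replicate 2, and at Dlx2 84.9% and 9.2% did. Enhancers between Dlx1 and Dlx2 are known from earlier work on the embryonic forebrain. In the 9426 bp between them, replicate 1 had 4 peaks, with signals from 0.623 to 0.684 and 844 passing bases. Replicate 2 had 0 peaks and 0 passing bases there.

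The strongest shared distal site of the pair lay just outside the 1 kb limit. It was intergenic, 1187 bp upstream of Dlx2, with a signal of 2.64 and 1.02, at the 83.1 and 79.5 percentiles of all peaks. A second, also intergenic, lay 34327 bp upstream of Dlx2 at 71581081 to 71581260, with 2.55 and 0.623, and it too held the letters GCGCCNNC at footprints of both libraries, read on the minus strand. At the site near Dlx2 the signal exceeded that of the Dlx2 promoter in both libraries. It exceeded that of the Dlx1 promoter in replicate 1, and in replicate 2 the values were 1.02 and 1.04.

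Dlx5 and Dlx6 form the other bigene pair, on chromosome 6, with Dlx6 at 6863334 to 6868568 on the plus strand and Dlx5 at 6877805 to 6882085 on the minus strand. Both are expressed later in the lineage than Dlx1 and Dlx2, as cells leave the progenitor zone. The strongest Dlx5 promoter peak had a signal of 1.25 and 0.583, at the 13.6 and 12.2 percentiles. That of Dlx6 had 1.26 and 0.508, at the 13.8 and 9.84 percentiles. The values of these 2 genes lay close to those of Dlx2 in each library. Passing bases made up 59.4% and 15.8% of the Dlx5 promoter and 20.5% and 8.26% of the Dlx6 promoter, so at each of the 4 Dlx genes the percentage was higher in replicate 1. Between Dlx6 and Dlx5, where enhancers are also known, the 9236 bp held 0 peaks and 0 passing bases in both libraries.

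The shared distal site of this pair was intergenic, 2956 bp upstream of Dlx5, with a signal of 2.52 and 1.15, at the 82.3 and 82.4 percentiles. It was above the promoter signal of both genes in both libraries. The Dlx6 promoter peak lay upstream of the gene in an intron of the noncoding gene Dlx6os1, 349 bp from the nearest Dlx6 start in replicate 1 and 377 bp in replicate 2. With a 250 bp window Dlx6 had a promoter peak in replicate 1 alone, through another peak 136 bp from a start. The stretch common to both libraries is shown because it holds the letters TGACGTCA of the CREB site at position 51 and AGGGGGC at position 58, counted from 1 at its 5′ end and overlapping by 1 base, both overlapped by footprints of both libraries.
Dlx6 promoter peak, chr6:6862841-6862957: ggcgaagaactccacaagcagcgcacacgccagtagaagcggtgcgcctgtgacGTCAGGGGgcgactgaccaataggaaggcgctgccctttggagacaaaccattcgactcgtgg
The CREB letters were in the windows of 200 bp around 1 of the 27 promoter peaks of the genes in replicate 1 (3.7%, against 1.79% of all promoter peaks). They were in 2 of 11 in replicate 2 (18.2%, against 1.83%). Outside that window, the wider replicate 1 promoter peak of Maf at 115707781 to 115708200 held them too. Of the 16 sets of letters searched, only this one has its promoter share given. The share rests on few peaks and is a description.

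Nkx2-1 and Lhx6, the regulators that start the medial eminence programme, were the members without an open promoter. Nkx2-1 lies on chromosome 12 at 56531958 to 56536908, minus strand. It encodes a homeodomain factor that most interneurons bound for the cortex switch off as they leave the eminence. None of the 2002 bases near its starts passed in either library, and the only distal peak of its window was the site shown above, in both libraries. That site lay 4253 bp upstream of the nearest Nkx2-1 start, in an exon of Gm26973, with a signal of 3.62 and 0.917, at the 87.5 and 76.5 percentiles. Nkx2-1 is also a gene of the hypothalamus. Of 14 hypothalamus and thalamus markers 8 had a promoter peak in replicate 1 and 5 in replicate 2. Their summed strongest signals, each on its library's own scale, were 13.9 and 4.46. Over all genes 67.2% and 64.9% had a promoter peak. Sim1, Lef1, Tcf7l2, Lhx9 and Nr5a1 had one in both libraries, and Agrp, Gbx2 and Fezf1 in replicate 1 alone. Pomc, Hcrt, Pmch, Avp, Oxt and Otp had none in either library.

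Lhx6 lies on chromosome 2 at 36081953 to 36105408, minus strand. It encodes a LIM homeodomain factor that parvalbumin and somatostatin interneurons keep expressing after birth. None of the 3818 bases near its starts passed in either library. Its shared distal site, within the gene 2673 bp downstream of the nearest start, had a signal of 0.866 and 0.485, at the 52.4 and 50.6 percentiles. The window of Lhx6 held 2 distal peaks in replicate 1 and 4 in replicate 2, and 1 was shared. The replicate 1 peak that was not shared lay 10487 bp upstream with a signal of 0.327. Both genes had CpG-rich promoters. All 10 members had promoters with a CpG observed over expected of at least 0.59, and of the 10297 genes at or above that value 2.56% had no promoter peak in either library.

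Maf and Satb1 act later, in interneurons already past their last division. Maf, on chromosome 8 at 115682942 to 115707794, minus strand, encodes a basic leucine zipper factor and is also expressed in microglia. Its promoter was the strongest of the members in both libraries, with signals of 2.16 and 1.52 at the 23.3 and 33.1 percentiles. All of its 1699 promoter bases passed in replicate 1 and 60.2% in replicate 2. The shared site 1747 bp upstream of Maf had 1.61 and 1.55, at the 73.1 and 88.4 percentiles, so it lay below the promoter in replicate 1 and just above it in replicate 2. The second shared site of Maf, intergenic at 115650141 to 115650560, had 0.813 and 0.415. All 4 distal peaks of replicate 1 at Maf were found again in replicate 2, which had 5. The same held for both of Satb1 and for the single one of Nkx2-1, and 4 of the 14 of Sp9 were found again. Of 12 microglia markers 8 and 10 had a promoter peak, where 67.2% and 64.9% of all genes had one, and Itgam had none in either. The markers' summed strongest signals, each on its library's own scale, were 16.9 and 6.96. The part of microglia in the Maf signal was not tested.

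Satb1, on chromosome 17 at 51736187 to 51833290, minus strand, encodes a chromatin-binding factor needed for somatostatin interneurons to mature and is also known from thymus. It is the longest member, with 12 annotated starts, and its promoter window of 10302 bp gave it more room for peaks than the 1018 bp of Dlx5. Its strongest promoter peak, at 51832901 to 51833100 in both libraries, had a signal of 1.8 and 0.513, at the 19.7 and 10 percentiles. That peak lay 190 bp from the nearest Satb1 start and in an exon of Gm6934, 82 bp from a start of that gene. It cannot be assigned to 1 of the 2 genes. Replicate 1 also had peaks of 1.78 and 1.06 at internal starts near 51812941 to 51813700 and 51812404 to 51812820, and replicate 2 had none there. Replicate 2 had a peak of 0.704 at 51811594 to 51811772, 675 bp from an internal start and so outside the promoter limit. The first distal site of Satb1, in an intron 18234 bp downstream of the nearest start, had 0.737 and 0.536, at the 45.3 and 55.8 percentiles of all peaks, and no footprint in either library. The second, 31137 bp downstream, had 0.433 and 0.692, at the 21.5 and 67.1 percentiles, and was the only one of the 17 shared distal sites of the members with the higher value in replicate 2.

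Sp8 and Sp9 encode related zinc-finger factors, and their open sites differed in number. Sp8 lies on chromosome 12 at 118846329 to 118852576 and Sp9 on chromosome 2 at 73271925 to 73284706, both on the plus strand. The strongest Sp8 promoter peak had a signal of 1.4 and 0.617, at the 15.3 and 13.3 percentiles. It lay in an intron, 366 bp from the nearest start in replicate 1 and 331 bp in replicate 2, and with a 250 bp window Sp8 had none in either library. That of Sp9 had 1.45 and 0.519, at the 15.9 and 10.3 percentiles, and covered the start in both. Passing bases were 8.04% and 8.39% at Sp8, the only member with a higher percentage in replicate 2, and 67.3% and 19.1% at Sp9.

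The strongest distal site of all members lay inside Sp9. It was in an intron 6615 bp downstream of the start, with a signal of 6.53 and 2.52, at the 93.5 and 94.4 percentiles. In replicate 1 that exceeded the median strongest promoter signal of all genes, 5.62, and in replicate 2 both values were 2.52. Sp9 had 14 distal peaks in replicate 1, which joined to 12 where they overlapped or touched, and 10 of the 14 overlapped the gene. Replicate 2 had 6, of which 3 overlapped the gene. The Sp8 site lay in intergenic sequence 7595 bp downstream of the nearest start, with 3.12 and 0.923, at the 85.6 and 76.7 percentiles. Several peaks of Sp8 and Sp9 lay near the promoter and distal limits. Single peaks 492 bp from an Sp8 start and 485 bp from the Sp9 start counted as promoter peaks, and peaks 1035 bp downstream and 1105 bp upstream of an Sp9 start counted as distal.

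**Figure D1:**
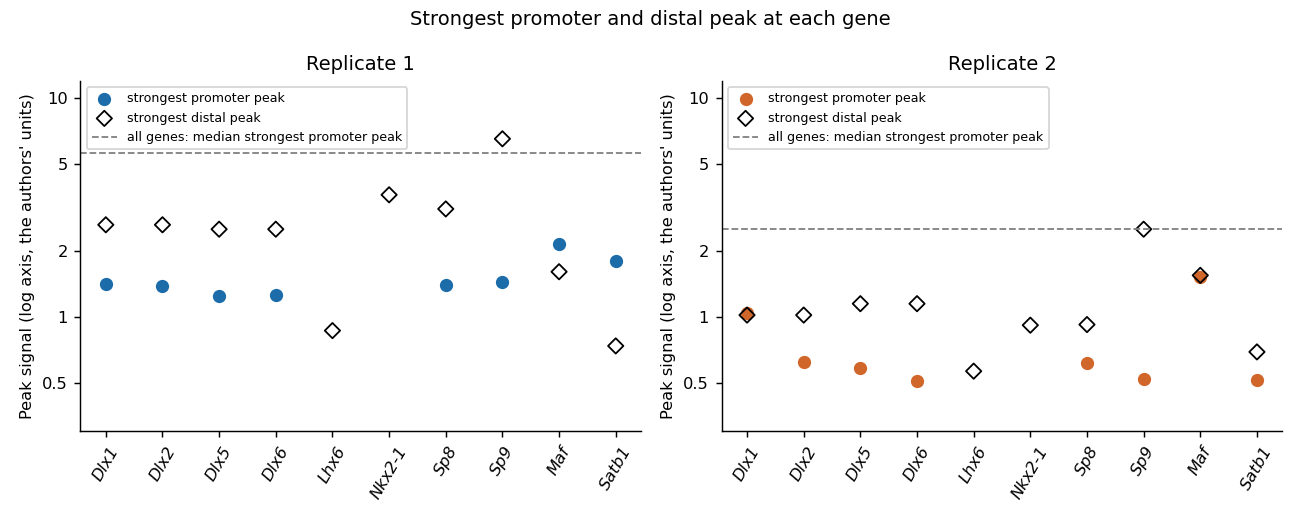
Signal of the strongest promoter peak (filled circle) and strongest distal peak (open diamond) of each gene, one panel per library, on a log axis in the authors' units. Every member's promoter lies below the dashed median of all genes, 5.62 in replicate 1 and 2.52 in replicate 2, and Lhx6 and Nkx2-1 have a distal peak only.

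Open promoters of the members were weak ones. Their median strongest signal was 1.4 in replicate 1 and 0.6 in replicate 2 (n = 8), where all genes with a promoter peak had 5.62 and 2.52. Genes whose promoters had a CpG observed over expected of at least 0.59 had 7.43 and 3.22. The 8 members lay between the 13.6 and 23.3 percentiles in replicate 1 and between the 9.84 and 33.1 percentiles in replicate 2. In descending order in replicate 1 they were Maf, Satb1, Sp9, Dlx1, Sp8, Dlx2, Dlx6 and Dlx5. In replicate 2 Maf and Dlx1 led and the other 6 lay between 0.508 and 0.623, with Satb1 second from the bottom. Maf was the highest in both, and the order of the other 7 differed between the libraries. The ratio of replicate 1 to replicate 2 had a median of 2.24 and ran from 1.35 at Dlx1 to 3.51 at Satb1, beside a median of 2.4 over all genes with a promoter peak in both.

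The strongest distal signal was above the strongest promoter signal at 6 of the 8 genes with a promoter peak in replicate 1, against 28.7% of all such genes. The same held at 7 of 8 in replicate 2, against 36.3%, and at 5 of 8 in both, against 22.4%. The 5 were Dlx2, Dlx5, Dlx6, Sp8 and Sp9. Dlx5 and Dlx6 share their distal site, so the 5 genes rest on 4 distinct sites. Dlx1 was in the count in replicate 1 only, and Maf and Satb1 in replicate 2 only. The counts depend on the 1 kb limit, since the Dlx2 site lay 1187 bp and the Maf site 1747 bp from a start. In replicate 2 the second shared sites had 0.623 at Dlx2 and 0.415 at Maf, beside promoter signals of 0.623 and 1.52. In replicate 1 the second Dlx2 site, 2.55, was still above the Dlx2 promoter, 1.38.

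Replicate 1 had wider open stretches at most of these promoters. The percentage of passing promoter bases was at least 2 times as high in replicate 1 at 6 of the 8 members with such bases in both, all but Maf and Sp8. Over all 14002 genes with such bases in both, 8.45% showed this. The reverse held at 0 of 8 members and at 1.31% of genes. The members' medians over all 10 were 38.2% and 8.33%, where all genes had 22.9% and 19%. Genes with a promoter CpG observed over expected of at least 0.59 had 40.6% and 35.8%, so the members' median was below theirs in both libraries. Peak counts moved the same way, with 27 promoter peaks in replicate 1 and 11 in replicate 2 at the members, and 27698 and 28412 over all genes. Of the members' promoter peaks 10 of 27 (37%) overlapped a peak of replicate 2, and 10 of 11 (90.9%) overlapped a peak of replicate 1. Among all promoter peaks the shares were 78.5% and 77%.

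**Figure D2:**
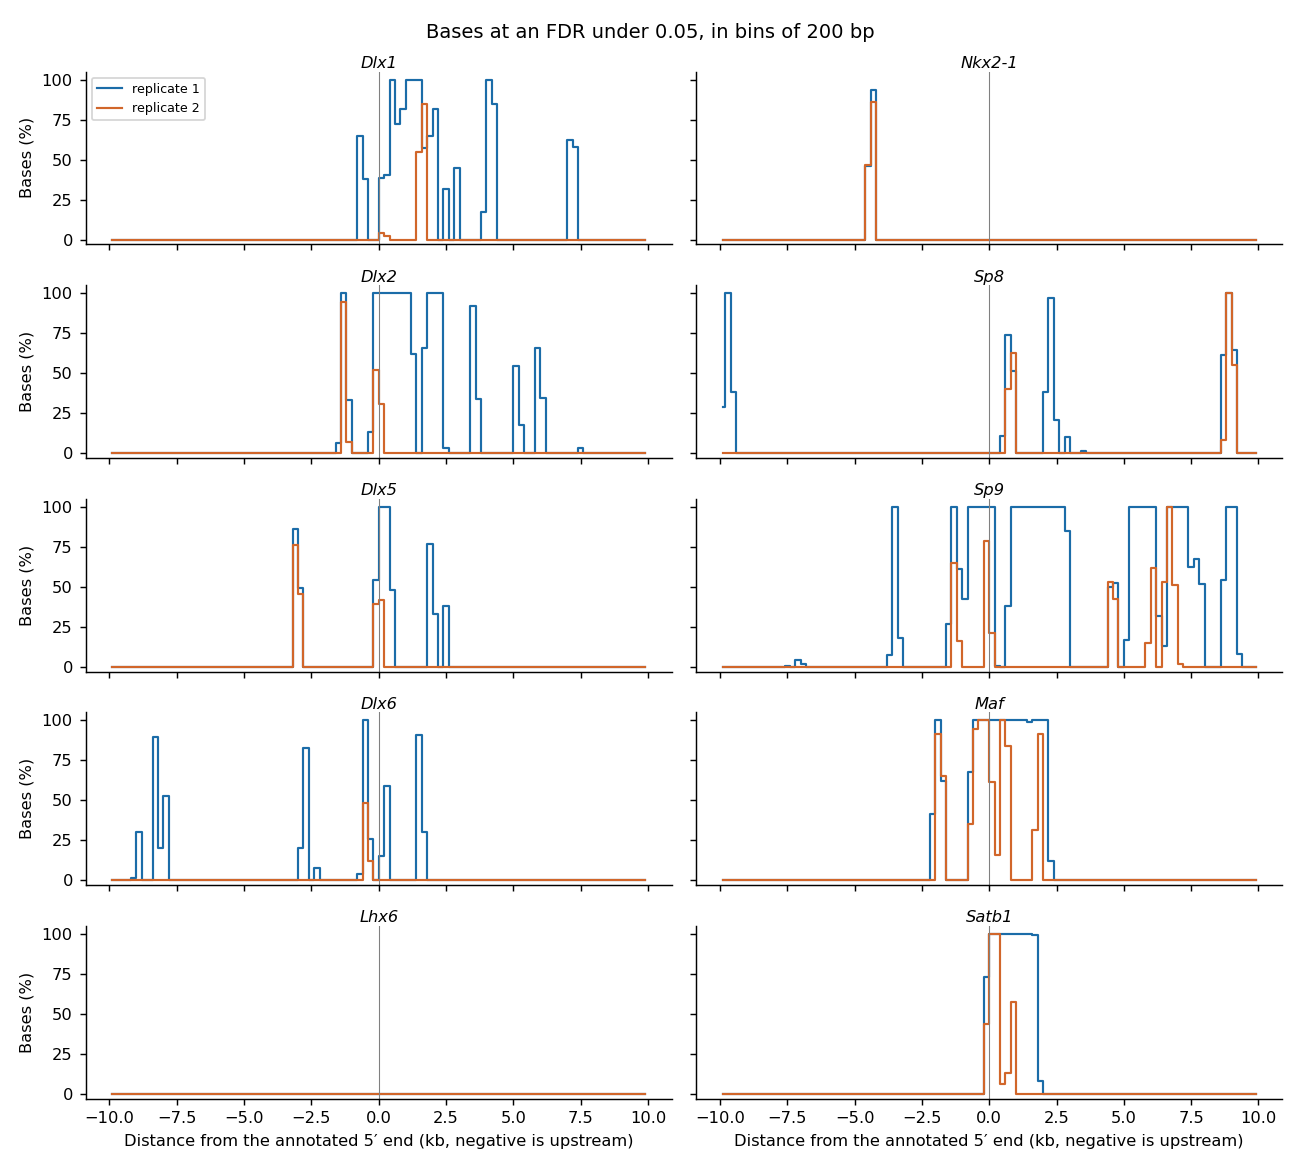
Percent of bases at an FDR under 0.05 in bins of 200 bp, within 10 kb of each gene's annotated 5′ end, with replicate 1 in blue and replicate 2 in orange and negative distances upstream. Bins pass over longer stretches in replicate 1 at the Dlx genes, Sp9, Maf and Satb1, no bin passes at Lhx6, and at Nkx2-1 only the upstream site passes, in both libraries.

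The other genes of the lineage did not all share that difference. Of 26 other interneuron lineage regulators, 23 had a promoter peak in replicate 1 and 18 in replicate 2, and 18 in both. Over all genes the shares were 67.2%, 64.9% and 63.2%. Lhx8, Nr2f2, Nkx6-2, Dlx3 and Nkx2-2 had one in replicate 1 alone, and the regulators Gsx2, Npas1 and Otx2 in neither. The median percentage of passing promoter bases of the 26 was 38.9% and 26.8%. The most distal peaks were at Npas3 (33 and 60), Sox6 (22 and 39) and Nr2f1 (16 and 19). Of 28 genes of interneuron function, 25 and 20 had a promoter peak, and the median percentage of passing bases was 39.7% and 10.5%. Among them Gad2, which makes GABA, Slc32a1, which loads it into vesicles, the peptide genes Sst and Vip, and Lamp5 and Nxph1 had a promoter peak in replicate 1 alone. Cort had one in replicate 2 alone, and Sncg and Crhbp in neither. The most distal peaks of this list were at Erbb4 (16 and 37), Reln (17 and 35) and Adarb2 (14 and 37).

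Markers of some other cells differed between the libraries too, while the astrocyte count and median percentage of passing bases hardly did. The part of other cells in the members' values was not tested. Of 13 genes of striatal projection neurons, which come from the same eminences, all had a promoter peak in both libraries. Over all genes 63.2% did. The summed strongest signal of the 13 was 34.2 and 14.9 and their median percentage of passing bases 35.3% and 16.1%. Signal scales differ between the libraries, and over all genes with a promoter peak in both the median ratio was 2.4. The summed signals are therefore not read as a difference between the libraries. Excitatory hippocampal neurons, the main neurons of the labelled tissue, had a promoter peak at 18 and 16 of 18 markers, with medians of 40.6% and 27.8% and summed signals of 82.7 and 39.5. Fibcd1 and Dsp were the markers without one in replicate 2. Astrocyte markers had one at 12 of 12 in both libraries, with medians of 27.5% and 25.9%. Oligodendrocyte lineage markers had 14.3% and 6.85%, and hypothalamus and thalamus markers 11.3% and 0%. Vessel markers had low medians, 2.2% and 1.82%, and a promoter peak at 6 of 12 in each library but only 4 in both. Microglia markers had the higher median in replicate 2, 8.72% against 12.9%.

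**Figure D3:**
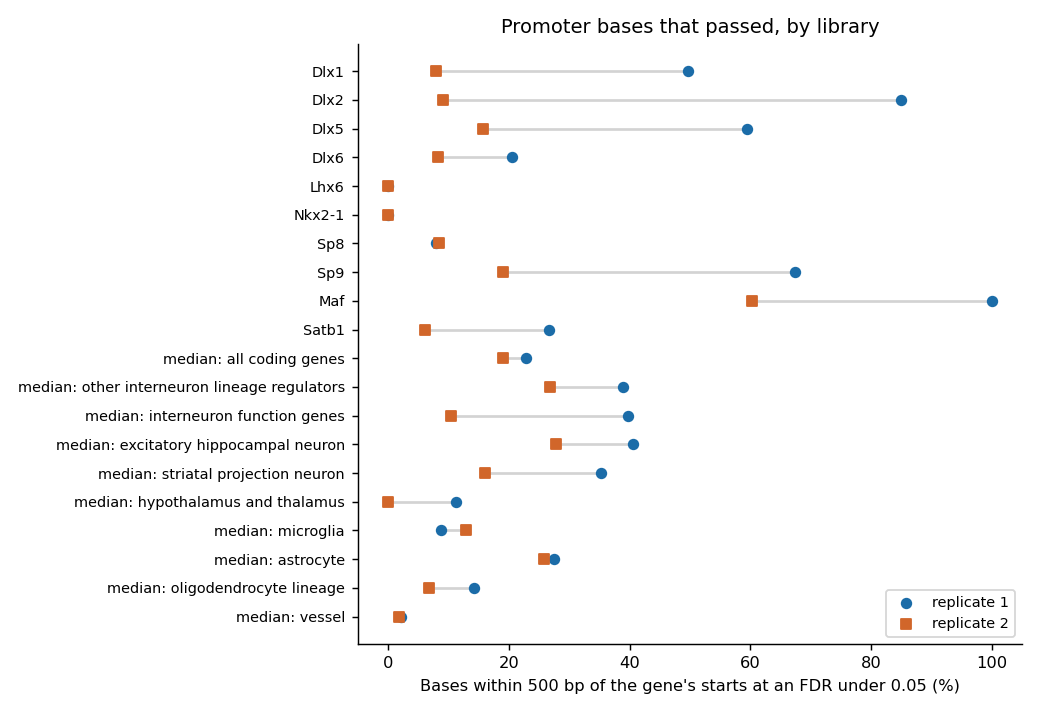
Percent of bases within 500 bp of the starts that passed an FDR under 0.05, per member and as the median of each gene list, with replicate 1 as circles and replicate 2 as squares joined by a grey line. Dlx2 has the widest gap, 84.9% against 9.2%, the gap of the interneuron function genes is 39.7% against 10.5%, and that of all coding genes 22.9% against 19%.

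Distal peaks were numerous at Sp9 and the Dlx pairs in replicate 1, less so in replicate 2, and few at Nkx2-1 and Sp8 in both. All 10 members had at least 1 in each library, as did 87.3% and 92.3% of all genes. Dlx1 had 9 and 6, Dlx2 9 and 4, Dlx5 7 and 5, and Dlx6 7 and 4, where genes of like length (the same decile) had medians of 3 and 4. The windows of each Dlx pair overlap, so most of their peaks count for both genes. Sp9 had 14 and 6 against medians of 4 and 5. Nkx2-1 had 1 and 1 and Sp8 2 and 1 against 3 and 4, Lhx6 2 and 4 and Maf 4 and 5 against 4 and 6, and Satb1 2 and 4 against 6 and 10. By the mean of both libraries, 88.6% of genes of like length had as many as Sp9 or fewer, and 9.19% as many as Satb1 or fewer. Replicate 1 had more distal peaks than replicate 2 at 6 members, the 4 Dlx genes, Sp8 and Sp9, and at 18.2% of all genes.

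**Figure D4:**
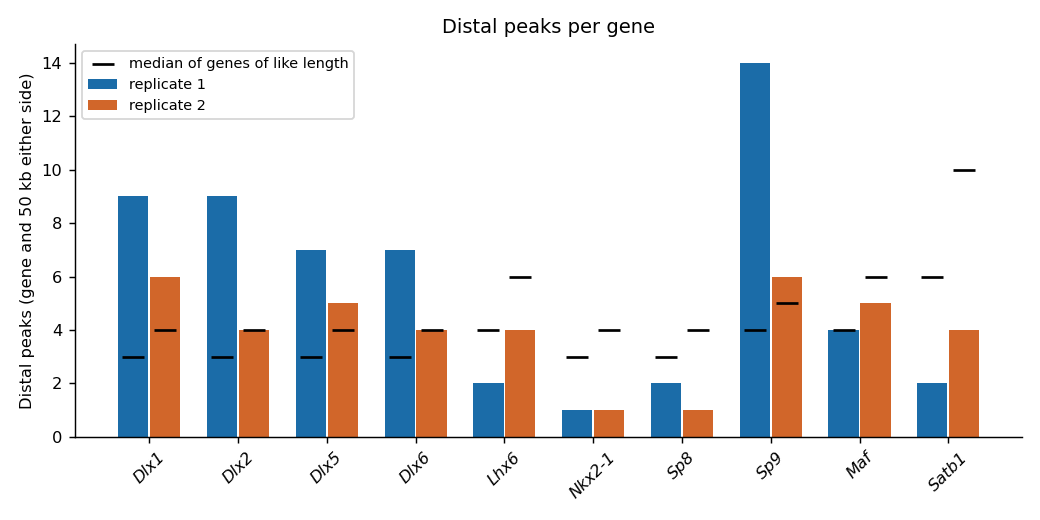
Number of distal peaks in each gene and 50 kb either side, as bars for replicate 1 (blue) and replicate 2 (orange), with black lines at the median of genes in the same decile of length. Sp9 reaches 14 in replicate 1, the 4 Dlx genes stand above their line in replicate 1, and Satb1 stands below its line in both.

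Fewer than 1 in 2 distal peaks of replicate 1 at the members were found again in replicate 2. Of the 42 in replicate 1, 17 (40.5%) overlapped a peak of replicate 2, and 68.9% of all distal peaks did. Of the 33 in replicate 2, 18 (54.5%) overlapped a peak of replicate 1, and 42.7% of all did. The shares depend on the flank. With 100 kb the first was 59.5%, and with 20 kb the second was 76.5%. Median distal signal was 0.714 and 0.421 at the members, close to 0.676 and 0.438 over all distal peaks. The 25 distal peaks of replicate 1 alone had a median signal of 0.676 and a median CpG observed over expected of 0.61. The 15 of replicate 2 alone had 0.363 and 0.18. At the 17 shared sites the ratio of replicate 1 to replicate 2 had a median of 2.19 and ran from 0.626 to 4.1. The median was 1.38 at all shared distal peaks and 2.32 at all shared promoter peaks.

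The members' distal peaks were also searched for 16 sets of letters, of which 6 are given here. In windows of 200 bp centred on the peaks, searched on both strands, GCGCCNNC was in 18 of 42 in replicate 1 (42.9%, against 10.7% of all distal windows). It was in 9 of 33 in replicate 2 (27.3%, against 6.17%). The Sp and KLF letters GGGCGG were in 10 of 42 (23.8%, against 9.01%) and 3 of 33 (9.09%, against 4.94%). The E-box CAGATG was in 4 of 42 (9.52%, against 25.6%) and 4 of 33 (12.1%, against 30.2%). The homeodomain letters TAATTA, the core that Dlx and Lhx factors read, were in 3 of 42 (7.14%, against 3.23%) and 3 of 33 (9.09%, against 6.91%). The NKX2-1 letters CTCAAG were in 6 of 42 (14.3%, against 10.9%) and 5 of 33 (15.2%, against 9.91%). The letters AGGGGGC, which on the opposite strand overlap GCGCCNNC in the CTCF sequence, were in 2 of 42 (4.76%, against 7.23%) and 1 of 33 (3.03%, against 4.66%). Of these 6 sets, the Sp and KLF, homeodomain and NKX2-1 letters were at higher shares than in all distal windows in both libraries. CAGATG and AGGGGGC were at lower shares in both. The share of GCGCCNNC was also higher, but those letters were chosen after the sequences shown above were seen. The sites shown are counted here too, so that share is a description. The part of base composition in these shares was not tested.

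Footprints in the members' promoter and distal peaks numbered 159 in replicate 1 and 67 in replicate 2. Of these 29 (18.2%) and 27 (40.3%) overlapped a footprint of the other library, where 44.5% and 35.9% of all footprints in promoter and distal peaks did. Counted per peak, the members' promoter peaks held 2.93 and 1.91 footprints, and all promoter peaks 3.64 and 2.9. The members' distal peaks held 2.07 and 1.39, and all distal peaks 1.9 and 1.81. At least 1 footprint was present in 21 of 27 (77.8%) and 10 of 11 (90.9%) of the promoter peaks and in 33 of 42 (78.6%) and 26 of 33 (78.8%) of the distal peaks. Of the 8 distal sites shown, those near Dlx2 and Nkx2-1 and in Sp9 had 3 footprints shared between the libraries, that of Sp8 had 2, those of Dlx5, Lhx6 and Maf had 1 and that of Satb1 had 0.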

How the data were processed

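DNase-seq peaks, footprints and FDR runs of 2 hippocampus libraries of 1 group were used. Per the deposited file listings, the authors processed each library separately, from its own filtered alignment on mm10, with no pooling. Aligner and callers: not given in the sources used here. Peak signal from the authors has no stated scaling, so depth in reads is unknown. The deposited FDR (q-value) files list only runs under 0.05. The deposited footprint score is 0.01 in every row, so only positions were used.

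From the longer of each library's 2 peak lists, promoter peaks, distal peaks, overlaps of at least 1 bp and consensus letters were computed with Python 3.11.15, pandas 2.3.3, numpy 2.4.6 and pysam 0.24.0, on GENCODE M21 and GRCm38.p6. A percentile is a rank within 1 library. The counting was tested on simulated data. All 10 members are named, with their strongest promoter peaks and the 2 best shared distal peaks of each locus, and up to 3 genes with the most distal peaks of each other interneuron list. Other genes of the lists, named for a promoter peak in both libraries, 1 library or neither, were chosen after their values were seen. The members, the lists and the 15 consensus sequences were chosen with earlier results of these data known, and GCGCCNNC was added after the sequences were seen. Alternatives were the stricter list, equal peak numbers, other windows, flanks and overlaps, and each library alone.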

Additional observations from a re-analysis of the deposited data

How the results depend on the processing

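Of 38 alternative values, 28 stayed within 1.5 times the reported count or inside the exact binomial interval of the reported share. With the stricter peak list, promoters open in both libraries numbered 3 in place of 8, those open in a single library 4 in place of 0, and distal peaks, as the mean of both libraries, 20 in place of 37.5. Promoters open in a single library numbered 1 with a 250 bp window (Dlx6), 2 with the gene's 5′ end only (Dlx1 and Sp8) and 1 with starts of protein-coding transcripts only (Dlx1), a setting added after the data were seen. A flank of 100 kb gave a mean of 82 distal peaks and a share of 59.5% of those of replicate 1 found again, in place of 40.5%. A flank of 20 kb gave 76.5% of those of replicate 2 found again, in place of 54.5%. Footprints, a mean of 113, ranged from 67 without replicate 1 to 159 without replicate 2. The cause of these shifts was not tested. Lhx6 and Nkx2-1 had no promoter peak in either library with a promoter window of 1000 bp. The other alternatives to the list, the window or the starts narrow what is counted, so they could hardly have added one. The unknown depth and signal scale limit every comparison of levels between the libraries.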
